A study of Mus musculus with 14 samples.

Results

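Antigen presentation in mouse liver was described through 10 genes, chosen by symbol: 5 of the MHC class II pathway (H2-Aa, H2-Ab1, H2-Eb1, H2-DMa and Cd74) and 5 that make and load peptides for MHC class I (Tap1, Tap2, Tapbp, Psmb8 and Psmb9). All 10 were found once among the 57180 genes of the deposited table, and all 10 were among the 16201 that passed the filter on low counts. RNA was sequenced from whole liver of 14 littermate mice on normal chow: 6 libraries labelled WT, 4 labelled Pkd1 Het and 4 labelled Pkd1 Homo. Every group, WT included, carries Cre in its label. The labels name no Pkd1 allele, Cre driver, age or sex, which leaves the altered cell types unknown. Pkd1 encodes polycystin 1, and the question was how the genotypes compare with WT.

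MHC class II molecules carry peptides from the endosome to the surface of antigen-presenting cells, where CD4 T cells read them. H2-Aa and H2-Ab1 encode the alpha and beta chains of I-A, and H2-Eb1 the beta chain of I-E. Cd74 encodes the invariant chain that fills the groove during transport, and H2-DMa a chain of the H2-M editor that exchanges the last piece of the invariant chain for peptide. In liver these genes are known from Kupffer cells, dendritic cells and B cells more than from hepatocytes. MHC class I presents peptides from the cytosol in nearly all cells. Psmb8 and Psmb9 encode catalytic subunits of the immunoproteasome, Tap1 and Tap2 the transporter that moves peptides into the endoplasmic reticulum, and Tapbp encodes tapasin, which holds class I molecules at that transporter. Interferon gamma is the classic inducer of both pathways.

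Of the 10 genes, 9 lie within the mouse MHC on chromosome 17, which also carries Pkd1. Upstream sequences in RefSeq (build GRCm38.p6, which differs from the GRCm39 of the counts) were available for 7 of the 10. None was available for H2-Ab1, Cd74 and Tap2. Some are printed as background, and their part in the levels of the members was not tested. Class II promoters are known for an X box, bound by RFX, followed by a Y box, bound by NF-Y, on which the coactivator CIITA assembles. The 120 bases before the start of H2-Aa (chr17:34287824-34287943, minus strand) and of H2-Eb1 (chr17:34305747-34305866, plus strand) are printed 5′ to 3′. Capitals mark CTNGCAACT, a stretch of the X box chosen after both sequences were seen, and the NF-Y pentamer CCAAT, each searched on both strands.
H2-Aa: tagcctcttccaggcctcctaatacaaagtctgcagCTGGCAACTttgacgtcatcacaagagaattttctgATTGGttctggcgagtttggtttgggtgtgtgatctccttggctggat
H2-Eb1: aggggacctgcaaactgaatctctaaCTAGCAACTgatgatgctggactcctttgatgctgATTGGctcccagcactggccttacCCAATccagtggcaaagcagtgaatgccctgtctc
CTNGCAACT and the nearest NF-Y pentamer after it were 27 bases apart in H2-Aa and 26 bases apart in H2-Eb1. The second marked pentamer of H2-Eb1 lies closer to the start, at -35 to -31. Of the members with a window only H2-Aa and H2-Eb1 held CTNGCAACT, and the class II member H2-DMa did not. CTNGCAACT was present in 0.898% and CCAAT in 37.4% of all 32851 RefSeq windows of 300 bases. Both within 50 bases of each other were present in 0.161% of windows. As CTNGCAACT was taken from H2-Aa and H2-Eb1, its presence in both was fixed beforehand, and these shares are no test of it.

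Tap1 and Psmb9 are transcribed away from each other. In the GENCODE M21 annotation their 5′ ends overlap, while the RefSeq start sites leave 225 bases between them, a stretch upstream of both. It is printed in the direction of Tap1 (chr17:34187331-34187555, GRCm38.p6, plus strand), with CCAAT and the GC box GGGCGG in capitals on either strand.
Psmb9 to Tap1: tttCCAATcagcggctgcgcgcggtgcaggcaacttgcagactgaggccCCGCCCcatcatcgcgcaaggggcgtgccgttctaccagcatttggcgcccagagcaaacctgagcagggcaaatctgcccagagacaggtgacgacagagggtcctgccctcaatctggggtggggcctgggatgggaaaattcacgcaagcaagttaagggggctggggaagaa
GGGCGG was present in 35.7% of windows. The interferon-stimulated response element, present in 3.44% of windows, had no match in the windows of Tap1 and Psmb9.

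Library totals ran from 18573739 to 40925973 counts. Levels are given as CPM, a count scaled to the effective library size. Mean Pkd1 was 34.8 ± 2.77 CPM for WT, 32.2 ± 3.52 for Het and 25.3 ± 1.51 for Homo (SD, n = 6, 4 and 4), lower in Homo than in WT (log2 -0.46, SE 0.0802, edgeR adjusted p = 0.0246). These counts cover the whole gene, so transcript outside any deleted exon is included. That call ended with the library total as the scale (edgeR adjusted p = 0.0576), with a replicate block (0.071) and when any of 7 single libraries was left out, with adjusted p up to 0.131 without Homo 1. It held with RLE scaling (edgeR adjusted p = 0.0216), no low-count filter (0.0185) and the 2 groups alone (0.0258). It also held in DESeq2 (DESeq2 adjusted p = 0.000193). The log2 difference stayed between -0.49 and -0.42 with each library left out, and between -0.46 and -0.42 under the other alternatives. The 6 hepatocyte markers summed to between 53649 and 79617 CPM in every library, with albumin (Alb) at 31705 CPM or more.

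The 10 members were all expressed, at levels that differed widely. Scaled to the longest coding transcript of each gene, Cd74 was the highest, at 32.2 ± 9.94 CPM per kb (SD over 14 libraries), followed by Tapbp at 20.1 ± 1.79 CPM per kb. Cd74 exceeded Tapbp in all 14 libraries, although their ranges overlapped. Psmb8 followed at 13.1 ± 1.63, H2-Ab1 at 10.5 ± 3.61 and H2-Aa at 8.74 ± 3.4 CPM per kb. Psmb8 was above H2-Ab1 in 10 of 14 libraries, and with the shortest coding transcript of each gene H2-Ab1 came first of these (14.3 against 13.1 CPM per kb). Psmb9, Tap1, H2-Eb1 and Tap2 lay between 5.55 and 6.53 CPM per kb and could not be put in order within their spread. H2-DMa was the lowest at 1.29 ± 0.29 CPM per kb, below Tap2 in all 14 libraries with no overlap.

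None of the 10 members passed the threshold of an adjusted p under 0.05 in Homo against WT, where 0.222% of all tested genes did (0.16% higher and 0.0617% lower). None passed in Het against WT (0.0556% of all genes), in Homo against Het (0.0309%, with 0.0123% higher and 0.0185% lower) or in the trend over WT, Het and Homo (0.185%, with 0.13% higher and 0.0556% lower). The smallest edgeR adjusted p of a member was 0.972, for Psmb9 in Homo against Het. Before adjustment, 1 of 10 had p under 0.05 in Homo against WT (4.73% of all genes), 1 of 10 in Het against WT (4.67%) 0 of 10 in Homo against Het (5.1%) and 1 of 10 in the trend (4.72%). For no member did the libraries of any 2 genotypes fail to overlap, against 1.15% of all genes in Homo against WT, 1.2% in Het against WT and 2.94% in Homo against Het. DESeq2, run as an alternative, also called 0 members in each of the 3 pairwise comparisons.

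**Figure D1:**
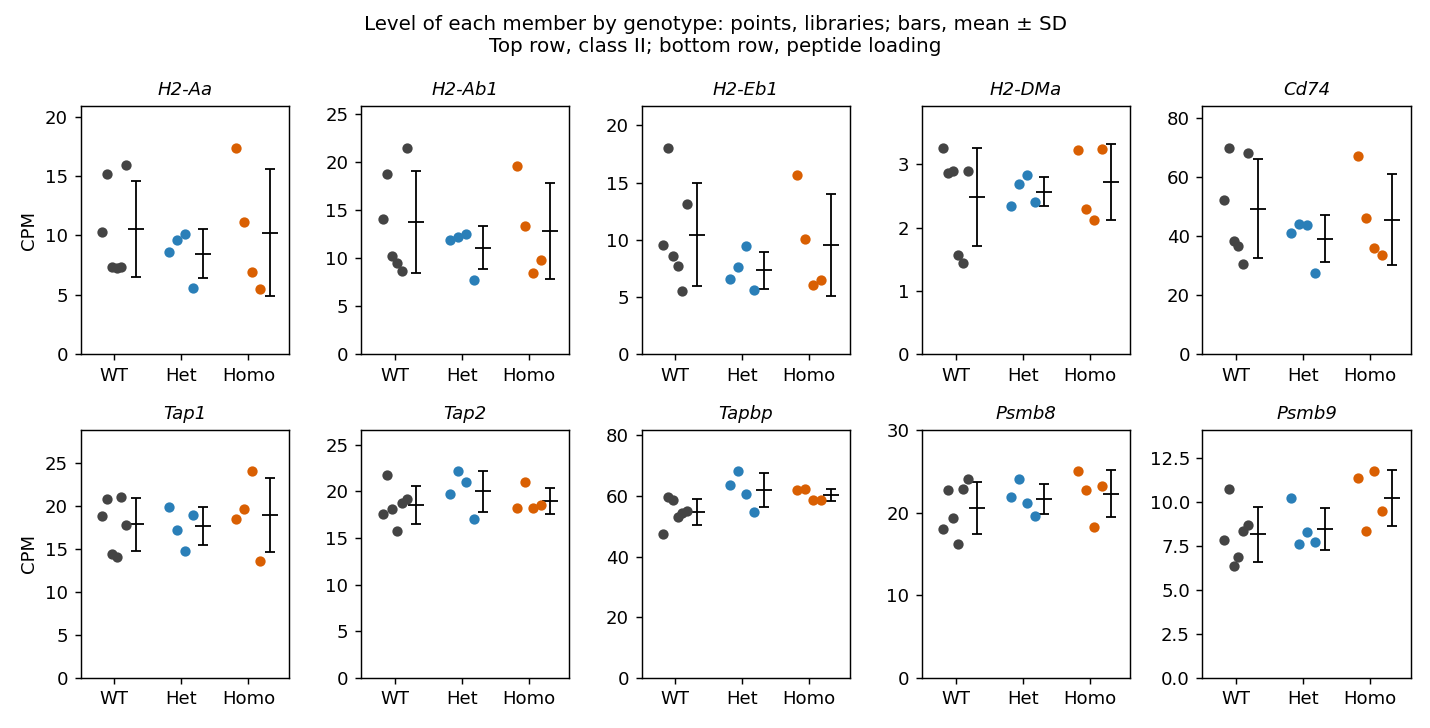
Level of each member in CPM (vertical axis, from 0, a scale per gene) by genotype (horizontal axis). Each point is a library, and bars give the mean ± SD (6 WT, 4 Het and 4 Homo). The genotypes overlap for all 10 genes, and the class II points spread over a wider range relative to their mean than those of Tapbp or Tap2.

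Among the class II chains, H2-Ab1 ran in WT from 8.71 to 21.5 CPM, with a median of 12.2. It was 11.9, 12.2, 12.5 and 7.76 CPM in Het 1 to 4 and 19.6, 13.4, 8.5 and 9.77 CPM in Homo 1 to 4. The highest libraries were WT 6, Homo 1 and WT 2 and the lowest was Het 4, so high and low livers occurred side by side within WT and within Homo. The fold was 0.93 in Homo over WT (95% interval 0.62 to 1.42) and 0.81 in Het over WT (0.53 to 1.23, edgeR adjusted p = 0.998 for both).

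H2-Aa, the partner chain, ran in WT from 7.29 to 15.9 CPM, with a median of 8.81. It was 8.6, 9.6, 10.1 and 5.56 CPM in Het 1 to 4 and 17.4, 11.1, 6.92 and 5.49 CPM in Homo 1 to 4. Homo thus held both the highest and the lowest library of all 14, Homo 1 and Homo 4. The fold was 0.98 in Homo over WT (95% interval 0.61 to 1.57) and 0.81 in Het over WT (0.5 to 1.3).

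H2-Eb1 ran in WT from 5.49 to 18.1 CPM, with a median of 9.07, the widest range of any member within WT at 3.29-fold. It was 6.59, 7.6, 9.48 and 5.6 CPM in Het 1 to 4 and 15.7, 10.1, 6.05 and 6.48 CPM in Homo 1 to 4. In Het, 3 of 4 libraries lay below the WT median, and all 4 lay inside the WT range. Its fold in Het over WT, 0.7 (95% interval 0.44 to 1.13, unadjusted p = 0.136, edgeR adjusted p = 0.998), was the farthest from 1 of all member folds. The alpha chain that pairs with it in I-E, H2-Ea, had 1 count over all 14 libraries together. Laboratory strains of the b haplotype are known to lack that chain, and no count here separates the genotypes.

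Cd74, the invariant chain, ran in WT from 30.7 to 70.1 CPM, with a median of 45.3. It was 41.2, 44.1, 43.9 and 27.6 CPM in Het 1 to 4 and 67.1, 46, 35.9 and 33.7 CPM in Homo 1 to 4. WT 2, WT 6 and Homo 1 were the highest, as for H2-Aa, H2-Ab1 and H2-Eb1. The fold was 0.93 in Homo over WT (95% interval 0.64 to 1.34) and 0.79 in Het over WT (0.55 to 1.15).

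H2-DMa was the faintest member, at 41 to 119 counts per library. It ran in WT from 1.44 to 3.27 CPM, with a median of 2.88, and was 2.34, 2.68, 2.83 and 2.41 CPM in Het and 3.24, 2.29, 2.12 and 3.24 CPM in Homo. The fold was 1.09 in Homo over WT (95% interval 0.77 to 1.55) and 1.03 in Het over WT (0.73 to 1.46). Counting error alone came to 11.5% of the mean in WT, where the CV over libraries was 31.3%.

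For peptide supply, Psmb9 gave the largest difference in Homo. It ran in WT from 6.35 to 10.7 CPM, with a median of 8.11, and was 10.2, 7.6, 8.28 and 7.71 CPM in Het and 11.4, 8.34, 11.8 and 9.5 CPM in Homo. All 4 Homo libraries were above the WT median and 2 of them were above every WT library, but WT 2 exceeded the other 2. Its level in Homo was 1.26 times that in WT (95% interval 1.01 to 1.56, unadjusted p = 0.0379, edgeR adjusted p = 0.998), and in Het over WT 1.04 (0.84 to 1.29). Psmb8, the other inducible subunit, ran in WT from 16.3 to 24.1 CPM, with a median of 21.1. It was 21.9, 24.1, 21.1 and 19.6 CPM in Het and 25.1, 22.7, 18.3 and 23.3 CPM in Homo, a fold over WT of 1.09 in Homo (0.92 to 1.29) and 1.05 in Het (0.89 to 1.25). Homo 3 had the highest Psmb9 and the third lowest Psmb8 level, so the pair did not move as a unit.

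Of the transporter genes, Tap1 ran in WT from 14.1 to 21.1 CPM, with a median of 18.4. It was 19.9, 17.3, 14.7 and 19 CPM in Het and 18.6, 19.7, 24.1 and 13.7 CPM in Homo, which held the highest and the lowest library of the 14. Tap2 ran in WT from 15.8 to 21.8 CPM, with a median of 18.4, and was 19.7, 22.2, 21.1 and 17.1 CPM in Het and 18.2, 21, 18.3 and 18.5 CPM in Homo. The Homo over WT fold was 1.07 for Tap1 (95% interval 0.85 to 1.33) and 1.02 for Tap2 (0.89 to 1.17). In Het over WT it was 0.99 for Tap1 (0.79 to 1.24) and 1.08 for Tap2 (0.94 to 1.24).

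Tapbp, tapasin, was the steadiest member. It ran in WT from 47.3 to 59.6 CPM, with a median of 54.8, and was 63.7, 68.2, 60.8 and 54.8 CPM in Het and 61.9, 62.2, 58.6 and 58.7 CPM in Homo. In Het, 3 of 4 libraries exceeded every WT library, and Het 4 lay just below the WT median. In Homo, 2 of 4 exceeded every WT library. The fold was 1.13 in Het over WT (95% interval 1.02 to 1.26, unadjusted p = 0.0284) and 1.1 in Homo over WT (0.99 to 1.23, unadjusted p = 0.0715), with an edgeR adjusted p = 0.998 for both.

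**Figure D2:**
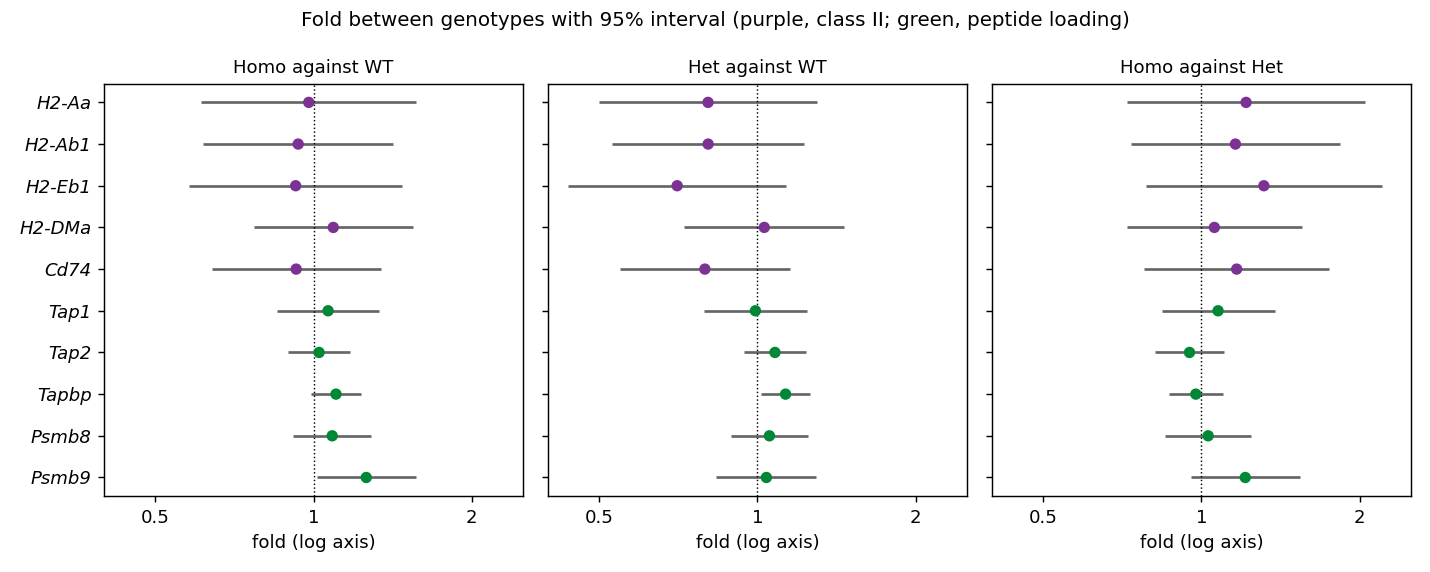
Fold between genotypes for each member (points) with its 95% interval (lines) on a log axis, for each pair of genotypes, before adjustment over genes. Intervals are wide for the class II genes, as for H2-Aa in Homo against WT (0.61 to 1.57), and narrow for Tapbp (0.99 to 1.23).

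The intervals show which sizes of change the data still allow. For Tap2, Tapbp and Psmb8, all intervals of Homo and of Het against WT lay between 0.89 and 1.29. For H2-Aa, H2-Ab1, H2-Eb1 and Cd74 they reached from 0.44 to 1.57, so the 14 livers could not resolve a loss or gain of up to that size. Over the 5 class II members the median log2 fold change was -0.1 in Homo against WT and -0.31 in Het against WT, with 4 of 5 below 0 in each. Over the 5 peptide loading members it was 0.12 and 0.08, with 5 and 4 of 5 above 0. The median over all tested genes was 0.00 in both, and the median size without sign was 0.10 in both. Both comparisons share the WT libraries, and the class II members also share their high and low livers, so these are not 5 separate readings.

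In Homo against WT the direction was not stable for 4 class II genes, H2-Aa, H2-Ab1, H2-Eb1 and Cd74. Of the peptide loading genes, Tap1 (log2 -0.042 to 0.22) and Tap2 (-0.019 to 0.086) also crossed 0 there when each library was left out in turn. Leaving out WT 2, WT 6, Homo 3 or Homo 4 turned the Homo against WT difference of H2-Aa and H2-Ab1 from below to above 0, and without Homo 1 it was -0.42 and -0.38 on the log2 scale. With the library total as the scale H2-Aa was also above 0, at 0.027. That of H2-Eb1 ran from -0.47 to 0.11 and that of Cd74 from -0.36 to 0.02 when each library was left out in turn. H2-DMa stayed above 0 in Homo against WT under each of the 20 alternatives. In Het against WT, H2-Aa, H2-Ab1, H2-Eb1 and Cd74 stayed below 0 under each of them, and H2-DMa changed sign under some.

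The spread among livers of a single genotype was the larger feature of the class II genes. The SD of log2 CPM within genotypes was 0.56 for H2-Aa, 0.55 for H2-Eb1, 0.49 for H2-Ab1, 0.44 for Cd74 and 0.38 for H2-DMa. The median over all tested genes was 0.24, and over genes of at least 1 CPM 0.20. H2-Aa was more variable than 93.7% of the genes of at least 1 CPM, H2-Eb1 than 93.4%, H2-Ab1 than 91% and Cd74 than 88.5%. Tapbp, at 0.11, was more variable than 15.5% of them, Tap2, at 0.14, than 31.5%, and Psmb8, at 0.19, than 49%. Tap1 (0.26) and Psmb9 (0.24) lay in between. For Cd74 in WT counting error was 2.64% of the mean and the CV over libraries was 34.1%. For H2-DMa counting error was 12.9% in Het, above the CV of 8.94% over those libraries, and 12.2% in Homo against a CV of 22.1%.

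**Figure D3:**
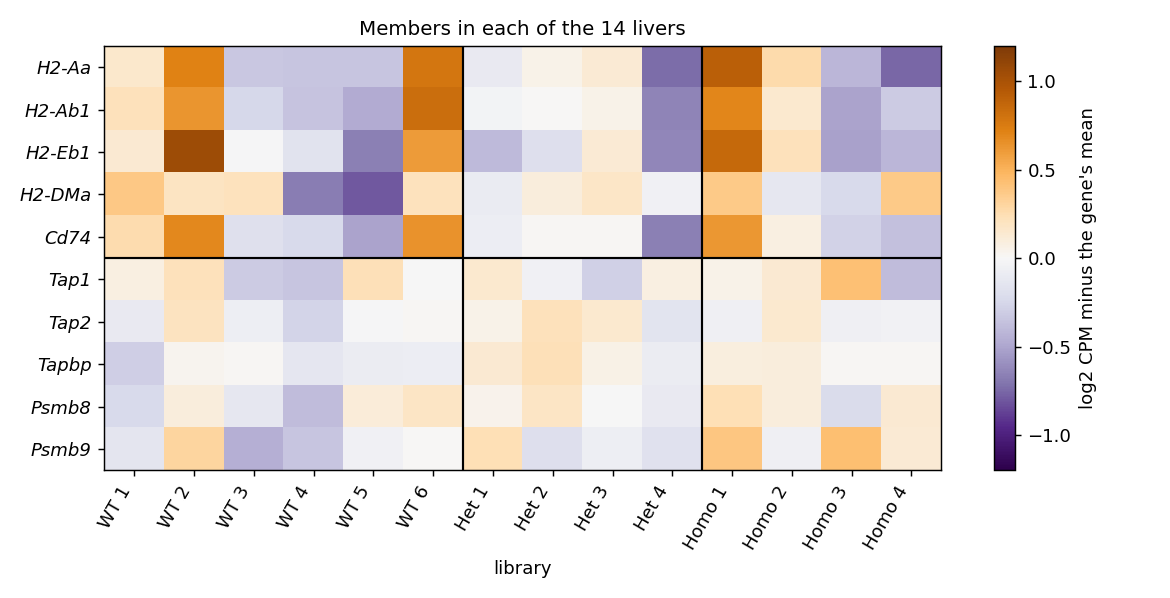
Log2 CPM of each member (rows) minus its mean over the 14 libraries (columns, ordered by genotype), in color from purple (lower) to orange (higher). WT 2, WT 6 and Homo 1 are high for H2-Aa, H2-Ab1, H2-Eb1 and Cd74 together, while Tap2 and Tapbp stay near 0 in most libraries.

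The I-A and I-E chains and the invariant chain varied together from liver to liver. Over 14 libraries, H2-Ab1 and Cd74 correlated with Pearson r = 0.98 and Spearman rho = 0.96 (permutation p = 1e-05 for both, the smallest that 100000 permutations can give, adjusted p = 0.000113 over 45 pairs of members). Without the 2 libraries farthest from the median of H2-Ab1 (Homo 1 and WT 6), r was 0.97. Cd74 also correlated with H2-Aa (r = 0.96, rho = 0.94) and with H2-Eb1 (r = 0.94, rho = 0.93), each with a permutation p = 1e-05 for r and for rho and an adjusted p = 0.000113. Without the 2 farthest libraries these were 0.93 and 0.91. Over the 6 pairs of these 4 genes r ran from 0.91 to 0.98 and rho from 0.89 to 0.96 (permutation, adjusted p at most 0.000375 for r and 0.0006 for rho). Taken as deviations from the genotype means, r ran from 0.91 to 0.98, and within the 6 WT livers alone from 0.89 to 0.99. Cd74 lies on chromosome 18 and the other 3 on chromosome 17, so the shared pattern was not confined to genes of the MHC. All values of a library share its depth and scaling.

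H2-DMa followed them loosely. Its r with the other 4 class II members ran from 0.39 to 0.56, and 0 of these 4 pairs passed after adjustment (with Cd74, r = 0.54, rho = 0.49, permutation p = 0.0463 and 0.0816, adjusted p = 0.172 and 0.27, and r = 0.44 without WT 4 and WT 5).

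The peptide loading genes moved less, and less together, with r from 0.01 to 0.69 over their 10 pairs. The 1 pair that passed was Tap2 and Tapbp (r = 0.69, rho = 0.72, permutation p = 0.00634 and 0.00479, adjusted p = 0.0408 and 0.0308), with r = 0.54 without Het 2 and WT 4. Tap1 and Psmb9, whose stretch between RefSeq starts is printed above, had r = 0.58 and rho = 0.55. Their permutation p was 0.0289 and 0.0452 (adjusted p = 0.13 and 0.223), and r was 0.68 without Homo 4 and WT 4. Tap1 and Tap2, the subunits of a single transporter, had r = 0.21 and rho = 0.2 (permutation p = 0.472 and 0.48, adjusted p = 0.624 and 0.618). Between class II and peptide loading members, r ran from -0.23 to 0.53 over 25 pairs, and 0 passed after adjustment.

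**Figure D4:**
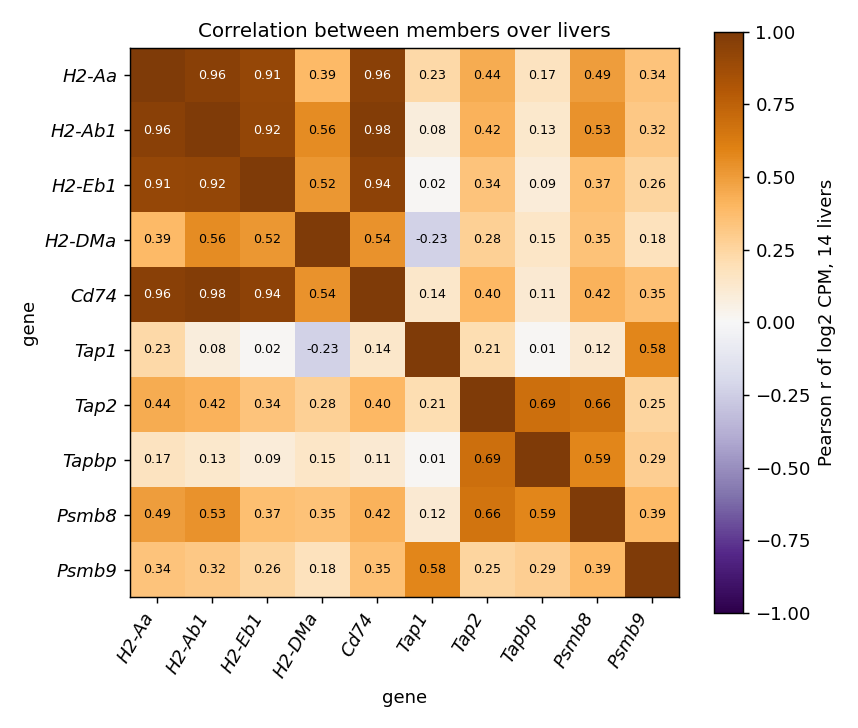
Pearson r of log2 CPM over the 14 libraries for each pair of members (rows and columns), in color from purple (-1) to brown (1). H2-Aa, H2-Ab1, H2-Eb1 and Cd74 form a block between 0.91 and 0.98, and the pairs of class II with peptide loading genes lie between -0.23 and 0.53.

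Ratios within a library, in which library size cancels, gave the same picture without a test. Cd74 counts were between 3.17 and 4.22 times those of H2-Ab1 in all 14 libraries, although Cd74 varied 2.54-fold and H2-Ab1 2.78-fold. As a log2 ratio, WT had 1.86 ± 0.105, Het 1.82 ± 0.0257 and Homo 1.85 ± 0.149 (SD). H2-Aa to H2-Ab1 was -0.38 ± 0.0895, -0.4 ± 0.0847 and -0.39 ± 0.297 on the log2 scale, with Homo 4 the lowest at -0.83. H2-Eb1 to H2-Ab1 was -0.42 ± 0.263, -0.6 ± 0.202 and -0.45 ± 0.116, and H2-DMa to H2-Ab1 was -2.45 ± 0.406, -2.09 ± 0.283 and -2.19 ± 0.479. For the immunoproteasome, Psmb8 to its constitutive counterpart Psmb5 was -1.05 ± 0.268, -1.0 ± 0.192 and -0.95 ± 0.362, and Psmb9 to Psmb6 was -3.02 ± 0.323, -2.95 ± 0.184 and -2.74 ± 0.242. Psmb9 to Psmb8 was -1.34 ± 0.199, -1.37 ± 0.232 and -1.13 ± 0.352. Tap2 to Tap1 was 0.06 ± 0.18, 0.18 ± 0.312 and 0.03 ± 0.346, and Tapbp to Tap1 was 1.63 ± 0.285, 1.81 ± 0.244 and 1.7 ± 0.337. For all 9 ratios the genotypes overlapped.

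Among 11547 other genes of at least 1 CPM, those most like the class II members were ranked by Pearson r with the mean log2 CPM of the 5, over 14 libraries. The first was C1qc, a complement subunit made by macrophages (r = 0.87), and the second Ciita, the coactivator that class II promoters require (r = 0.85). Lcp2, a signalling adaptor of blood cells (0.83), Acap1 (0.79) and Gpr108 (0.79) followed. Ciita ran in WT from 1.56 to 3.54 CPM, with a median of 2.08, and was 2.17, 2, 1.79 and 1.21 CPM in Het and 3.53, 2.33, 1.93 and 1.37 CPM in Homo. WT 2 and Homo 1 were its highest libraries, and Het 4 was its lowest, as it was for Cd74. The likeness held for C1qc (0.89) and Ciita (0.84) as deviations from the genotype means. Because these genes were chosen by r, no p is given.

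The genes most like the mean of the 5 peptide loading members were the class I-like genes H2-Q4 (r = 0.84) and H2-Q7 (r = 0.83), then Slc15a3, a transporter of histidine and small peptides in endolysosomes (0.81), the receptor kinase gene Axl (0.79) and Eefsec, an elongation factor for selenocysteine (0.78). H2-Q4 stood at 25.9 ± 2.96, 26.7 ± 3.22 and 27.1 ± 1.99 CPM and H2-Q7 at 51.2 ± 8, 56 ± 10.5 and 62.9 ± 9.32 CPM in WT, Het and Homo (SD). Both belong to a family of near-identical genes, and how reads were shared out between copies is uncertain. None of the 10 genes passed in any comparison between genotypes (edgeR).

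Bulk liver cannot separate more presenting cells from more RNA per cell, so markers of the cells that could carry these genes were summed per library. For Kupffer cells, 10 of 10 markers were tested and the sum ran from 254 to 306 CPM in WT, 260 to 313 in Het and 295 to 323 in Homo. Of these markers 0 passed, while 9 of 10 lay above 1 in Homo against WT (median log2 0.19) and 7 of 10 in Het against WT (0.03). C1qb did not overlap between WT (27.6 to 33.6 CPM) and Homo (33.7 to 36.8 CPM, edgeR adjusted p = 0.771). The same held for 1.15% of all genes. The markers C1qa and C1qc did overlap. C1qa lay below 1 in Homo against WT, at 27.4 ± 5.18 CPM in WT and 26 ± 2.12 in Homo (log2 -0.08). C1qc was at 28.2 ± 3.51 and 29.1 ± 4.1 CPM (log2 0.04). For dendritic cells, 6 of 9 were tested and the sums were 8.98 to 12.3, 10.2 to 12.8 and 10.8 to 13.5 CPM. For B cells, 6 of 7 were tested and the sums were 7.25 to 18.7, 6.89 to 14.4 and 9.45 to 15.2 CPM. For monocytes, 5 of 5 were tested and the sums were 18 to 30.5, 22.2 to 31.6 and 20 to 30.6 CPM. Sinusoidal endothelium (6 of 6 tested) summed to 206 to 234, 219 to 257 and 219 to 261 CPM, and bile duct (5 of 5) to 25.5 to 36.1, 27.8 to 36.1 and 20.5 to 66.7 CPM. In Homo against WT, 5 of 6 tested markers lay above 1 for dendritic cells (median log2 0.12), B cells (0.3) and sinusoidal endothelium (0.08). It was 3 of 5 for monocytes (0.04) and bile duct (0.15). In Het against WT it was 3 of 6 for dendritic cells, 2 of 6 for B cells and 6 of 6 for endothelium. For monocytes and for bile duct it was 2 of 5. No marker of these 6 lists was at 0 in all libraries, and their part in the class II levels was not tested by any model.

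Across livers, Cd74 and the Kupffer sum had r = 0.49 and rho = 0.44 (permutation p = 0.0745 and 0.116, adjusted p = 0.789 for r over 18 relations), r = 0.62 without WT 2 and WT 6, 0.67 as deviations from the genotype means and 0.81 within WT. With the B cell sum Cd74 had r = 0.33 and rho = 0.42 (permutation p = 0.257 and 0.138), and with the dendritic cell sum r = 0.15 and rho = 0.07 (permutation p = 0.614 and 0.809). With the library total it had r = 0.09 and rho = 0.17 (permutation p = 0.765 and 0.564). None of the 18 relations, of Cd74 and of Psmb8 with 8 marker sums and the library total, passed after adjustment.

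Of the 6 T cell markers, 3 were tested, and 1 of them, Cd3e, did not overlap between WT and either other genotype (1.15% of all genes did not in Homo against WT and 1.2% in Het against WT). Its part in the levels of the members was not tested. The sum of the markers was 7.33 to 18.4 CPM in WT, 18.8 to 22.5 in Het and 19.1 to 27.9 in Homo. Most of it was Cd3e, at 11.7 ± 3.87, 16.9 ± 1.41 and 18.5 ± 3.43 CPM (SD, Homo against WT log2 0.66, edgeR adjusted p = 0.976). Cd3g and Cd4 overlapped between all genotypes, with Cd3g at a mean of 0.324, 0.396 and 0.361 CPM. Cd3d, Cd8a and Trac had at most 13 counts in any library and were not tested. Their means in WT, Het and Homo were 0.156, 0.0952 and 0.153 CPM for Cd3d, 0.227, 0.225 and 0.201 CPM for Cd8a, and 0.258, 0.192 and 0.281 CPM for Trac. Cd4, which macrophages of some tissues and T cells both express, was at 2.14 ± 0.758, 2.54 ± 0.751 and 2.57 ± 1.01 CPM.

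The wider pathways gave no call either. Of 57 tested genes in 7 lists, 0 passed in any pairwise comparison (smallest edgeR adjusted p = 0.916). Of the other class II genes, 3 of 7 listed names were tested, namely H2-DMb1, H2-DMb2 and H2-Ob, with 0 higher and 0 lower. H2-DMb1, the partner chain of H2-DMa, stood at 1.83 ± 0.448, 1.8 ± 0.628 and 2.2 ± 0.721 CPM in WT, Het and Homo, and H2-DMb2 at 0.345 ± 0.24, 0.45 ± 0.312 and 0.321 ± 0.107 CPM. These 2 are close copies, and their separate levels are uncertain. H2-Oa and H2-Eb2 had at most 7 and 5 counts in a library. One listed name, H2-Ea-ps, is the older symbol of H2-Ea.

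Of the 8 class II transcription factors, 0 passed, and 3 lay above 1 in Homo against WT (median log2 -0.04). Nfya, a subunit of NF-Y, was at 11.2 ± 1.17, 9.99 ± 0.102 and 9.69 ± 0.965 CPM, and Nfyc at 15.8 ± 1.08, 15.5 ± 2.26 and 18 ± 1.02 CPM in WT, Het and Homo. Of the 6 genes of class II processing and turnover, 0 passed, while 6 of 6 had a fold above 1 in Homo and 5 of 6 in Het against WT (median log2 0.16 and 0.14). Legumain (Lgmn), an endosomal protease, was at 38.2 ± 1.48, 42.5 ± 4.01 and 43 ± 4.58 CPM, and Ifi30, the reductase that opens disulfides in antigens, at 8.86 ± 0.509, 8.69 ± 0.742 and 10.1 ± 0.642 CPM.

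Of the 8 genes of class I chains and assembly, 0 passed and 1 lay above 1 in Homo against WT (median log2 -0.04). B2m, the light chain of class I, was at 1352 ± 160, 1290 ± 66.8 and 1258 ± 57.8 CPM, and Pdia3, which works with tapasin, at 333 ± 22.8, 312 ± 39.2 and 310 ± 11.2 CPM. Of the 7 proteasome partners, 0 passed and 4 lay above 1 (median log2 0.01). Psmb10, the third inducible subunit, was at 18.9 ± 1.93, 20.7 ± 2.24 and 21.4 ± 2.65 CPM, and the constitutive Psmb7 at 98.5 ± 3.65, 97.6 ± 4.68 and 94.1 ± 4.31 CPM.

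Interferon genes were read because interferon gamma drives both pathways. Of 13 control genes, 0 passed and 5 lay above 1 in Homo against WT (median log2 -0.05), with Irf8 at 6.91 ± 1.31, 8.87 ± 0.894 and 8.07 ± 1.04 CPM and Ifngr2, a receptor chain for interferon gamma, at 14.3 ± 3.09, 11.9 ± 2.89 and 11.7 ± 0.978 CPM. Of 12 induced genes, 0 passed. In Homo against WT 8 of 12 lay above 1 (median log2 0.05), in Het against WT 1 of 12 (median log2 -0.15). In Homo against Het 12 of 12 did (median log2 0.18), and these comparisons share libraries. Those below 1 in Homo against WT were Gbp7, Igtp, Irgm1 and Cxcl10. The genes of smallest p there were Ifit3 and Usp18. Ifit3 was at 10.7 ± 2.58, 10.2 ± 1.2 and 12.5 ± 1.66 CPM and Usp18 at 8.16 ± 2.18, 7.46 ± 2.14 and 9.9 ± 2.05 CPM in WT, Het and Homo.

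Called genes of chromosome 17 lay on both sides of the members, but none lay next to them. Of 753 tested chromosome 17 genes, 28 (3.72%) passed in Homo against WT. Ordered along the chromosome in GENCODE M21, 20 of 342 genes before the members passed (5.85%) and 8 of 385 after them (2.08%). The 9 members lie 193 tested genes beyond Pkd1. Between their outermost genes and within 10 tested genes on each side stood 37 other genes, of which 0 passed in any pairwise comparison. The nearest called gene before the members was Zfp955b, 19 tested genes away, and the nearest after them was the class I-like gene H2-T24, 82 away. H2-T24 rose from 3.13 ± 0.756 to 9.03 ± 2.18 CPM (edgeR adjusted p = 0.00861). Both were named after their values were seen. Of the 37 neighbours, Zbtb22, a zinc finger gene, stood at 7.9 ± 0.743 CPM in WT and 9.48 ± 1.37 in Homo, Notch4, an endothelial receptor, at 3.33 ± 0.238 and 3.93 ± 0.745, and Vps52, of the retrograde GARP complex, at 14.6 ± 1.11 and 13.5 ± 0.683 (edgeR adjusted p = 0.998 for each). The median size of the log2 fold change in Homo against WT, without sign, was 0.11 for the 9 members, 0.09 for the 37 neighbours and 0.12 for all of chromosome 17.

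**Figure D5:**
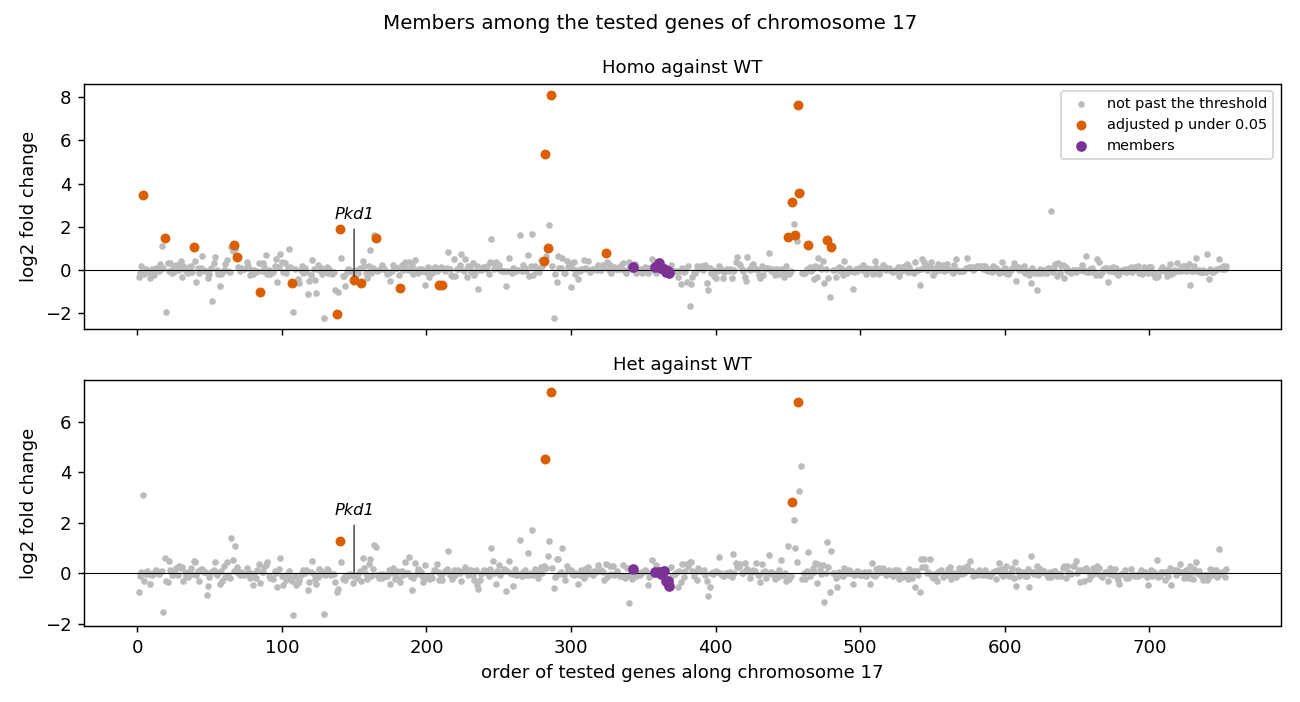
Log2 fold change (vertical axis) of the 753 tested genes of chromosome 17 in their order along the chromosome (horizontal axis), for Homo and for Het against WT. Orange points passed an adjusted p under 0.05, and purple points are the 9 members, which lie near 0 between groups of called genes.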

How the data were processed

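RNA from 14 mouse livers was sequenced (Trizol and RNeasy extraction and a NuGen Ovation kit, per the labels' protocols). The authors deposited estimated counts per gene, and the submitters' processing notes name STAR, Salmon and GRCm39. Which versions, annotation, trimming and strand setting were used: not given in the sources used here. Between 6.36% and 8.59% of the deposited counts per library were not whole (tolerance 0.01), and all were rounded. Each column name matched 1 sample description. Even the most similar libraries differed beyond counting noise (chi-square over its degrees of freedom 26.4), and each was counted once. Where nothing says that numbered mice differ in litter or batch, p-values measure the spread between these libraries.

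Genes were kept with filterByExpr of edgeR 4.0.16 (count minimum 10, total minimum 15), scaled with TMM and tested with edgeR's quasi-likelihood test over all 14 libraries in R 4.3.3, two-sided, with Benjamini-Hochberg adjustment over all 16201 genes. Log2 CPM used a prior count of 2. The fit was tested on simulated data. Correlations have two-sided permutation p-values, which the planned design did not include. Alternatives used RLE scaling, library totals, no filter, DESeq2 1.42.0, the 2 groups alone, a replicate block, and each library left out. GENCODE M21, on the older GRCm38, gave gene order and transcript lengths but no printed gene coordinates. It placed 15610 of the tested genes.

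The members and gene lists were chosen with earlier results of these data known. Genes named besides the members and Pkd1 were the 5 most like the class II and the 5 most like the peptide loading members, from each list any gene past the threshold and otherwise the 2 genes of smallest p for Homo against WT, and the 3 neighbours with the smallest p. Not every gene so picked from the marker lists is described.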

Additional observations from a re-analysis of the deposited data

Results flagged for a closer look

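The members were screened for single livers that stand apart within a genotype, over 30 groups (10 genes in 3 genotypes), of which chance alone would mark about 1 in 20. H2-Ab1 in Het 4, at 7.76 CPM, stood apart from the other Het libraries. Tap2 in Homo 2, at 21 CPM, stood apart from the other Homo libraries.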

How the results depend on the processing

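No member passed the threshold under any of 20 alternatives (lowest adjusted p = 0.646), and 18 of 40 member differences kept their direction under all that were run for them. The trend was not run in DESeq2 or with the 2 groups alone. The number of members called was 0 throughout. Without Het 4, the libraries of Het and WT ceased to overlap for 1 member. Without Het 1, those of Homo and Het did so for 1 (range 0 to 1 for both). The share of all genes was not computed for these settings, so nothing is read from these counts. With all libraries it was 1.2% and 2.94%. A group with fewer libraries ceases to overlap more easily, although the filter and the scaling were also computed anew. The number of all genes called in Homo against WT was 36, with 61 in DESeq2, 19 with the replicate block and from 23 (without Homo 1) to 40 with each library left out. In Het against WT it was 9, with 34 in DESeq2, 23 with no filter on low counts and from 8 to 11 with a library left out. In Homo against Het it was 5, with 20 in DESeq2, 2 with the replicate block, 2 with the libraries of those genotypes alone, and from 4 to 7. In the trend it was 30, with 11 under the replicate block and from 19 (without WT 1 or WT 6) to 33.

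Scaled by the library total, the log2 difference changed sign for H2-Aa in Homo against WT (0.027) and for Tapbp in Homo against Het (0.031). That scale moved the median of all genes by less than 0.1. With the replicate block it changed sign in Het against WT for H2-DMa (-0.028) and Tap1 (0.070), and in Homo against WT for C1qc (-0.00092) and Ciita (-0.041). The block changed no member's call, while that of Pkd1 in Homo against WT ended (adjusted p = 0.071). Over 12 pairs of same-numbered libraries the deviations from the group means had r from -0.092 to 0.15, with 2 pairs over 0.1. Of 12 libraries, 5 correlated best with a library of their own number. The labels do not say what the number stands for, and whether it marks a shared litter or batch was not tested. The cause of these changes was not tested.

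With each library left out in turn, log2 differences crossed 0 as follows. In Homo against WT: H2-Aa -0.42 to 0.17, H2-Ab1 -0.38 to 0.072, H2-Eb1 -0.47 to 0.11, Cd74 -0.36 to 0.016, Tap1 -0.042 to 0.22, Tap2 -0.019 to 0.086, C1qc -0.051 to 0.11, Ciita -0.26 to 0.21, Acap1 -0.074 to 0.18, Gpr108 -0.035 to 0.074, H2-DMb2 -0.38 to 0.11 and Cx3cr1 -0.38 to 0.58. In Het against WT: H2-DMa -0.078 to 0.13, Tap1 -0.077 to 0.066 and Psmb9 -0.052 to 0.15. In Homo against Het: H2-Aa -0.10 to 0.48, H2-Ab1 -0.068 to 0.37, H2-DMa -0.015 to 0.19, Cd74 -0.022 to 0.34, Tap1 -0.030 to 0.23, Tapbp -0.090 to 0.015 and Psmb8 -0.017 to 0.13. In the trend: H2-Aa -0.22 to 0.053, H2-Ab1 -0.21 to 0.030, H2-Eb1 -0.26 to 0.046, Cd74 -0.20 to 0.00068, Tap1 -0.020 to 0.096 and Tap2 -0.00076 to 0.047. With 41 to 119 counts per library, depth limits H2-DMa most.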
